A study of Mus musculus with 16 samples.

Results

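Glycolysis turns glucose into pyruvate and lactate, and 33 genes of that route were followed here in mouse embryonic stem cells leaving the naive state. They were chosen by name and function, as the glucose transporters, hexokinases, phosphofructokinases, enzymes of fructose 2,6-bisphosphate, lower glycolytic enzymes, lactate dehydrogenases, pyruvate dehydrogenase and its kinases, lactate transporters, and the transcription factor Hif1a. They are 33 of the 35975 genes measured, and all 33 passed the filter on low counts. The members share roles in 1 route and the rule uses no measured value, but they were chosen with earlier results of these data known.

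Glucose enters a cell through transporters of the Slc2a family and is trapped as a phosphate by hexokinase. Phosphofructokinase then makes the committed step, which fructose 2,6-bisphosphate stimulates, and the lower enzymes split the sugar and harvest ATP on the way to pyruvate. Pyruvate either becomes lactate, which leaves through monocarboxylate transporters, or enters mitochondria through the pyruvate dehydrogenase complex, which its kinases switch off. Naive mouse embryonic stem cells are known to draw on both glycolysis and respiration, whereas the epiblast-like state that follows is known for leaning on glycolysis. Hif1a, the oxygen-regulated subunit of hypoxia-inducible factor, is a known activator of many of these genes.

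The samples were bulk messenger RNA libraries of ES-E14TG2a (E14) cells, a mouse embryonic stem cell line, labelled TKO or WT, with 2 biological replicates in each of 8 groups and 16 libraries in all. The 4 TKO groups and the 4 WT groups were taken at day 0, in medium holding LIF, vitamin C and inhibitors of both MEK and Gsk3, and at days 2, 4 and 7 after a change to Fgf2, Activin A and Knock-out Serum that starts differentiation to epiblast-like cells (EpiLCs). Cells of both genotypes were split again at day 4 with accutase, so the day 7 samples came after another plating. The labels do not expand TKO, do not name its alleles and do not say whether TKO or WT was a single clone.

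Total estimated counts per library ran from 33168178 to 47064338 in TKO and from 39799498 to 58197630 in WT, and 18489 genes passed the filter. Dnmt1, the maintenance DNA methyltransferase, read 36.2 to 55.9 CPM (counts scaled to library size by TMM) over the TKO libraries and 310.3 to 545 over the WT libraries. The replicates of TKO day 4 differed over 2-fold at 145 genes and those of WT day 0 at 110, against 5 to 70 in the other groups. At TKO day 4 the de novo methyltransferase Dnmt3a read 187 and 33.9 CPM in replicates 1 and 2, against 297 and 380.1 in WT. At day 0 Dnmt3a read 2.79 and 2.45 CPM in TKO and 27.5 and 33.1 in WT. Dnmt3b read alike at day 0, with 29.3 and 28.9 CPM in TKO and 27.3 and 29.3 in WT. At day 2 Dnmt3b read 995 and 923 CPM in TKO and 1898 and 1695 in WT. Markers of the naive and epiblast-like states, T and Mixl1 of mesoderm, and fibroblast genes were read beside the members. In bulk RNA, fewer cells of a type and less RNA per cell cannot be told apart.

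By TPM, which scale for depth and transcript length so that genes can be set side by side, Gapdh led in every group and Pkm was next from day 2 onward. In day 7 WT cells Gapdh averaged 6926 TPM, Pkm 2142, Aldoa 1489.8, Ldha 1482 and Pgk1 969.7, whereas Pdk4 averaged 0.269 and Pdk2 3.39. Summed over the 33 members, TKO libraries held 12172 to 12249.9 TPM at day 0, 15465 to 16443 at day 2, 15072 to 15459.6 at day 4 and 9988 to 10030.00 at day 7. WT libraries held 10661 to 11057 TPM at day 0, 17301 to 18244 at day 2, 16638 to 20072 at day 4 and 16788 to 17599.9 at day 7. The summed level of TKO lay above that of WT at day 0 and below it on the 3 later days, without overlap of libraries. Gapdh alone carries much of each sum, and at day 0 averaged 6941 TPM in TKO and 5759 in WT, without a call. For some members the order of the genotypes depended on the scale. At day 0 Aldoa averaged 891 TPM in TKO and 869 in WT, but 815 and 904 CPM. At day 2 Gpi1 averaged 446 TPM in TKO and 413 in WT, but 407 and 467 CPM. For others the gap was narrower in TPM. Slc16a3 at day 2 read 266 and 302 TPM in TKO and 320 and 294 in WT, an overlap absent in CPM. Hk1 at day 7 averaged 12.9 TPM in TKO and 15.7 in WT, but 24.1 and 37.4 CPM. The calls rest on counts. The sums were not tested.

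At day 7, TKO cells held less transcript of nearly every step from glucose uptake to lactate export. The neuronal-type glucose transporter gene Slc2a3 was the most reduced (log2 fold change -2.67), followed by the aldolase gene Aldoc (-2.54), the triosephosphate isomerase gene Tpi1 (-2.38, from matched transcripts at a low level), the pyruvate dehydrogenase kinase gene Pdk1 (-1.89), the phosphoglycerate kinase gene Pgk1 (-1.78) and the lactate exporter gene Slc16a3 (-1.67). Against this, Pfkfb4 (1.505), Pdk4 (0.96), Ldhb (0.82) and Pfkfb2 (0.62) were higher in TKO. In edgeR's quasi-likelihood test with Benjamini-Hochberg adjustment, 24 members were lower and 4 higher at an adjusted p under 0.05, where over all genes tested 21.1% were called lower and 23.4% higher. Of the calls, 13 lower and 1 higher were at least 2-fold, and the median over the 33 members was -0.89 against 0.003 over all genes tested, both log2. Leaving out each library in turn gave 24 to 25 calls.

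By role, both glucose transporters, both hexokinases, both lactate transporters and all 11 members of the core lower and middle route were called lower at day 7, along with 2 of 3 phosphofructokinases. The 4 genes of fructose 2,6-bisphosphate metabolism split into 2 higher and 1 lower, the lactate dehydrogenases into 1 and 1, and the pyruvate dehydrogenase kinases into 1 and 1. The 5 members not called were Pfkp (-0.44), Pfkfb3 (-0.14), Pdk2 (-0.24), Pdk3 (-0.09) and Pdha1 (0.12), all log2 fold changes. Calls of 24 members held in every alternative tried. Pfkfb2 lost its day 7 call without WT replicate 1, WT replicate 2, TKO replicate 1 or TKO replicate 2 (adjusted p 0.0723 to 0.163). Pdk4 lost its day 7 call without WT replicate 1, WT replicate 2 or TKO replicate 1 (adjusted p 0.103 to 0.297). Without TKO replicate 1 the Pdk4 value was 0.54. Pdhb lost its day 7 call with DESeq2 size factors (adjusted p = 0.0593), with DESeq2 (adjusted p = 0.0615) and without WT replicate 1, WT replicate 2, TKO replicate 1 or TKO replicate 2 (adjusted p 0.0653 to 0.131). Hif1a lost its day 7 call without WT replicate 1, WT replicate 2 or TKO replicate 2 (adjusted p 0.0525 to 0.124).

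**Figure D1:**
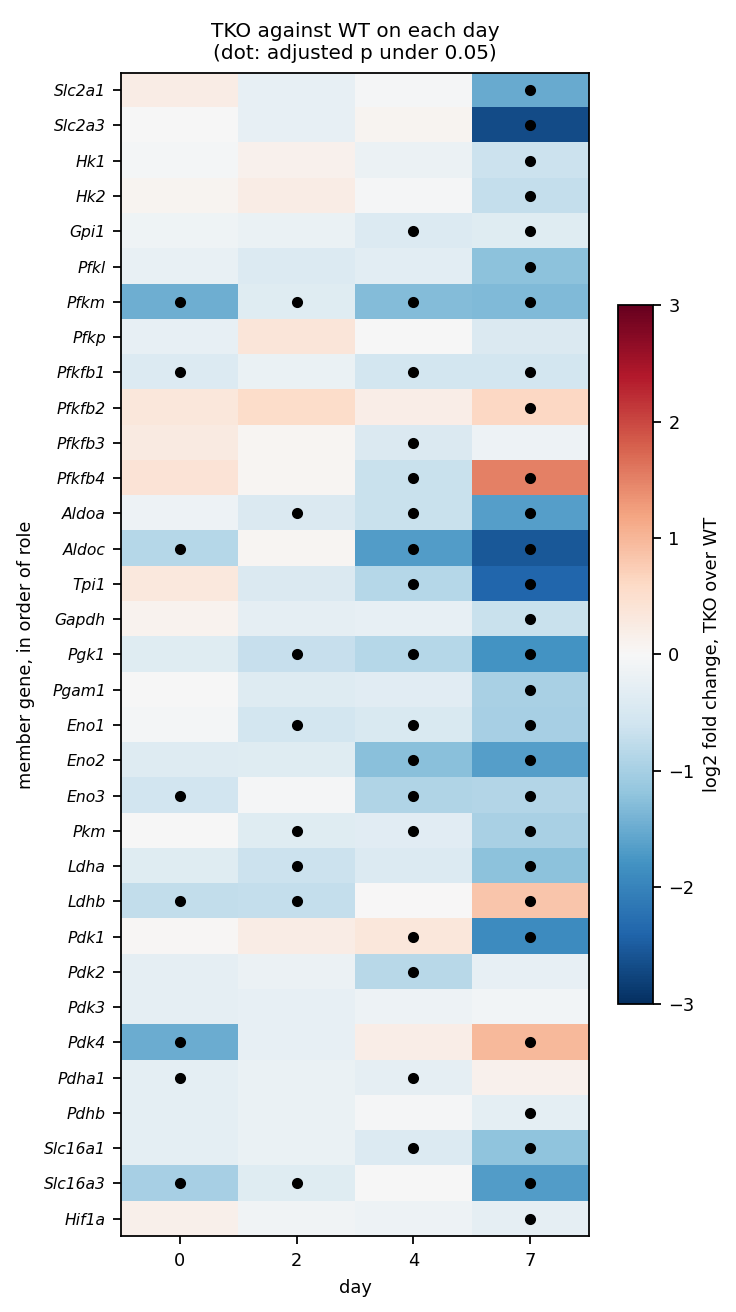
Each row is a member gene in order of role and each column a day; colour gives the log2 fold change of TKO over WT and a dot marks an edgeR adjusted p under 0.05. The day 7 column is blue (lower in TKO) at 24 called members and red (higher in TKO) at 4, against 8 called members at day 0, 8 at day 2 and 17 at day 4.

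Other lineage markers also differed in the day 7 cultures. The mesoderm genes T, Mixl1 and Mesp1 summed to 714 to 747 TPM in TKO and 53.5 to 63.95 in WT, and 2 of the 3 were called higher, Mesp1 being under the filter. T read 516 and 527 CPM in TKO and 51.6 and 42.9 in WT, and Mixl1 75.1 and 85.5 in TKO and 7.56 and 6.17 in WT. Of the 7 naive markers, which summed to 16.3 to 18.4 TPM in TKO and 6.48 to 7.13 in WT, 4 were called higher and 1 lower. Of the 5 epiblast-like markers, summing to 539 to 542 TPM in TKO and 785 to 857 in WT, 1 was higher and 3 lower, while both general pluripotency genes, Pou5f1 and Sox2, were lower (862 to 876 TPM in TKO, 1048 to 1115 in WT). Endoderm genes summed to 103 to 120.5 TPM in TKO and 87.1 to 115 in WT (1 of 4 higher, 2 lower), fibroblast genes to 23.4 to 23.7 and 18.7 to 19.4 (1 of 7 higher, 0 lower), and neural genes to 5.19 to 5.42 and 5.50 to 6.14 (0 of 3 higher, 1 lower). The endoderm genes moved in opposite directions. Foxa2 read 89.9 and 106 CPM in TKO and 46.1 and 39.2 in WT. Sox17 read 4.40 and 5.04 in TKO and 40.8 and 29.2 in WT. Gata4 read 5.78 and 5.87 in TKO and 28.3 and 19.6 in WT, and Gata6 11.7 and 11.9 in TKO and 18.5 and 12.2 in WT. No listed gene of these marker sets was at 0 in every day 7 library. At day 4, 17.8% of all genes tested were called higher in TKO and 11.1% lower. The 7 naive markers then summed to 37.2 to 54.8 TPM in TKO and 18.8 to 22.9 in WT, with 5 higher and 0 lower. Neural genes had 2 of 3 higher, endoderm genes 2 of 4 higher and 1 lower, and epiblast-like markers 2 higher and 1 lower. Fibroblast genes had 1 higher and 2 lower, and mesoderm and general pluripotency genes 0 called. The part of these markers in the day 4 and day 7 differences of the members was not tested.

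On the earlier days fewer members differed and nearly all that did were lower in TKO. At day 4, 16 were lower and 1 higher, where 11.1% and 17.8% of all genes tested were called, and the median over the members was -0.35 (log2). The largest were Aldoc (-1.67), Pfkm (-1.30), Eno2 (-1.26), Eno3 (-0.91), Tpi1 (-0.86) and Pgk1 (-0.85), and the 1 higher was Pdk1 (0.34). Without WT day 4 replicate 2 the day 4 count was 10, and the calls that held in every alternative were Pfkm, Pfkfb1, Aldoa, Aldoc, Tpi1 and Eno3. With only the day 4 groups fitted the count was 7. Some of these values moved with 1 WT library, since Pgk1 was -0.36 without WT replicate 2, Eno2 -0.71 without WT replicate 1 and Pdk1 0.18 without WT replicate 1.

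At day 2 the 8 members called, all lower in TKO, were Ldhb (-0.71), Pgk1 (-0.69), Ldha (-0.63), Eno1 (-0.55), Aldoa (-0.44), Pkm (-0.37), Slc16a3 (-0.37) and Pfkm (-0.35), none of them 2-fold, against a background of 5.52% called lower and 7.91% called higher. The median over the members was -0.25 (log2). With only the day 2 groups fitted, 10 members were called lower in TKO and 3 higher. The day 2 count was 1 without WT replicate 1, 0 without WT replicate 2, 1 without TKO replicate 1 and 0 without TKO replicate 2, so no day 2 call held in every alternative, while fitting only the day 2 groups gave 13.

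In naive cells at day 0 the called members were Pdk4 (-1.49), Pfkm (-1.48), Slc16a3 (-0.99), Aldoc (-0.86), Ldhb (-0.73), Eno3 (-0.58), Pfkfb1 (-0.42) and Pdha1 (-0.30), all 8 lower in TKO, where 8.16% of all genes tested were called lower and 4.52% higher. The median over the members was -0.23 (log2). The day 0 count was 5 without WT replicate 1, 12 without WT replicate 2, of which 2 were higher in TKO, 4 without TKO replicate 1 and 3 without TKO replicate 2, and 4 with only the day 0 groups fitted. Without WT replicate 1 the Ldhb value was -0.42. Pfkm, Pdk4 and Slc16a3 kept their call in every alternative.

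From day 0 to day 2 the set was rebuilt in both genotypes. In WT cells 16 members rose and 14 fell between these days (32.9% and 28.6% of all genes tested), and in TKO cells 16 rose and 12 fell (31.5% and 25.5%). The lactate exporter Slc16a3 rose most, by 5.69 in TKO and 5.06 in WT, followed by Pfkl (2.36 in TKO, 2.53 in WT), Ldha (1.84 in TKO, 2.12 in WT) and Pdk1 (2.29 in TKO, 2.09 in WT), as log2 fold changes. Hk1 fell most (-3.30 in TKO, -3.48 in WT), with Slc2a3 (-2.87 in TKO, -2.63 in WT), Pdk4 (-1.28 in TKO, -2.52 in WT) and Ldhb (-1.90 in TKO, -1.92 in WT). The TKO and WT changes differed at 3 members by the interaction test (TKO change minus WT change), where 5.76% of all genes were called more positive in TKO and 1.8% more negative: Pfkm (1.12 (adjusted p = 0.000159)), Aldoc (0.93 (adjusted p = 0.0268)) and Slc16a3 (0.62 (adjusted p = 0.0383)). The count of 3 became 5 without WT day 0 replicate 1 and 1 without either library of WT day 2, TKO day 0 or TKO day 2, with Pfkm called under every alternative.

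Between day 2 and day 4, 13 members rose and 9 fell in WT cells (26.2% and 28.2% of all genes tested), and 12 rose and 8 fell in TKO cells (24.5% and 20.9%). In WT the largest rises were of Aldoc (1.04 in TKO, 2.78 in WT), Eno2 (0.85 in TKO, 1.74 in WT), Pdk2 (0.99 in TKO, 1.64 in WT) and Pdk4 (1.91 in TKO, 1.46 in WT). The largest falls were of Ldhb (-0.17 in TKO, not called, and -0.89 in WT), Slc16a3 (-0.50 in TKO, -0.86 in WT), Pfkp (-1.17 in TKO, -0.79 in WT) and Eno3 (-1.49 in TKO, -0.62 in WT). The TKO changes were more negative than the WT changes at Aldoc (-1.74 (adjusted p = 0.000397)), Pfkm (-0.95 (adjusted p = 0.00018)) and Eno3 (-0.86 (adjusted p = 0.0328)), where 3.95% of all genes were called more negative and 7.75% more positive. Eno3 lost its call in the interaction from day 2 to day 4 without WT day 2 replicate 1, WT day 4 replicate 1, TKO day 2 replicate 1, TKO day 2 replicate 2 or TKO day 4 replicate 2 (adjusted p 0.0791 to 0.118). The TKO count of 20 was 12 without TKO day 2 replicate 1 and 12 without TKO day 2 replicate 2.

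Between day 4 and day 7 the genotypes parted further. In TKO cells 20 members fell and 6 rose (23.5% and 21.9% of all genes tested), with a median of -0.52 (log2), whereas in WT cells 12 fell and 6 rose (19.1% and 17.7%), with a median of -0.14. In WT, Slc16a1 (0.48 in TKO, 1.28 in WT), Pfkfb3 (1.47 in TKO, 1.17 in WT), Hk2 (0.44 in TKO, 1.11 in WT) and Slc2a3 (-1.90 in TKO, 0.86 in WT) rose most, Slc2a3 alone of these falling in TKO. Hk2 in TKO changed by 0.27 without TKO day 4 replicate 2. The largest WT falls were of Pdk4 (-1.94 in TKO, -2.71 in WT), Pfkp (-1.93 in TKO, -1.50 in WT), Slc2a1 (-2.70 in TKO, -1.23 in WT) and Pdk1 (-3.26 in TKO, -1.03 in WT).

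The changes between day 4 and day 7 differed between the genotypes at 19 members, 16 more negative in TKO and 3 more positive, where 9.81% and 8.96% of all genes tested were called. The gap was widest for Slc2a3 (-2.75 (adjusted p = 1.71e-05)), Pdk1 (-2.23 (adjusted p = 4.49e-07)), Slc16a3 (-1.66 (adjusted p = 8.83e-06)), Tpi1 (-1.52 (adjusted p = 0.00154)) and Slc2a1 (-1.48 (adjusted p = 4.11e-05)) on the negative side. Pfkfb4 (2.17 (adjusted p = 2.66e-05)), Ldhb (0.81 (adjusted p = 0.0437)) and Pdha1 (0.39 (adjusted p = 0.0185)) made up the positive side. In 12 of the 19 the call held under every alternative, and the counts without 1 library ran from 13 to 18. Ldhb lost its call in the interaction from day 4 to day 7 when low counts were not filtered (adjusted p = 0.0782) and without WT day 4 replicate 2, WT day 7 replicate 1, WT day 7 replicate 2, TKO day 4 replicate 1, TKO day 4 replicate 2, TKO day 7 replicate 1 or TKO day 7 replicate 2 (adjusted p 0.0589 to 0.167). Pdha1 lost its call in the interaction from day 4 to day 7 without WT day 4 replicate 2, WT day 7 replicate 1, WT day 7 replicate 2, TKO day 4 replicate 2 or TKO day 7 replicate 1 (adjusted p 0.0854 to 0.113).

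**Figure D2:**
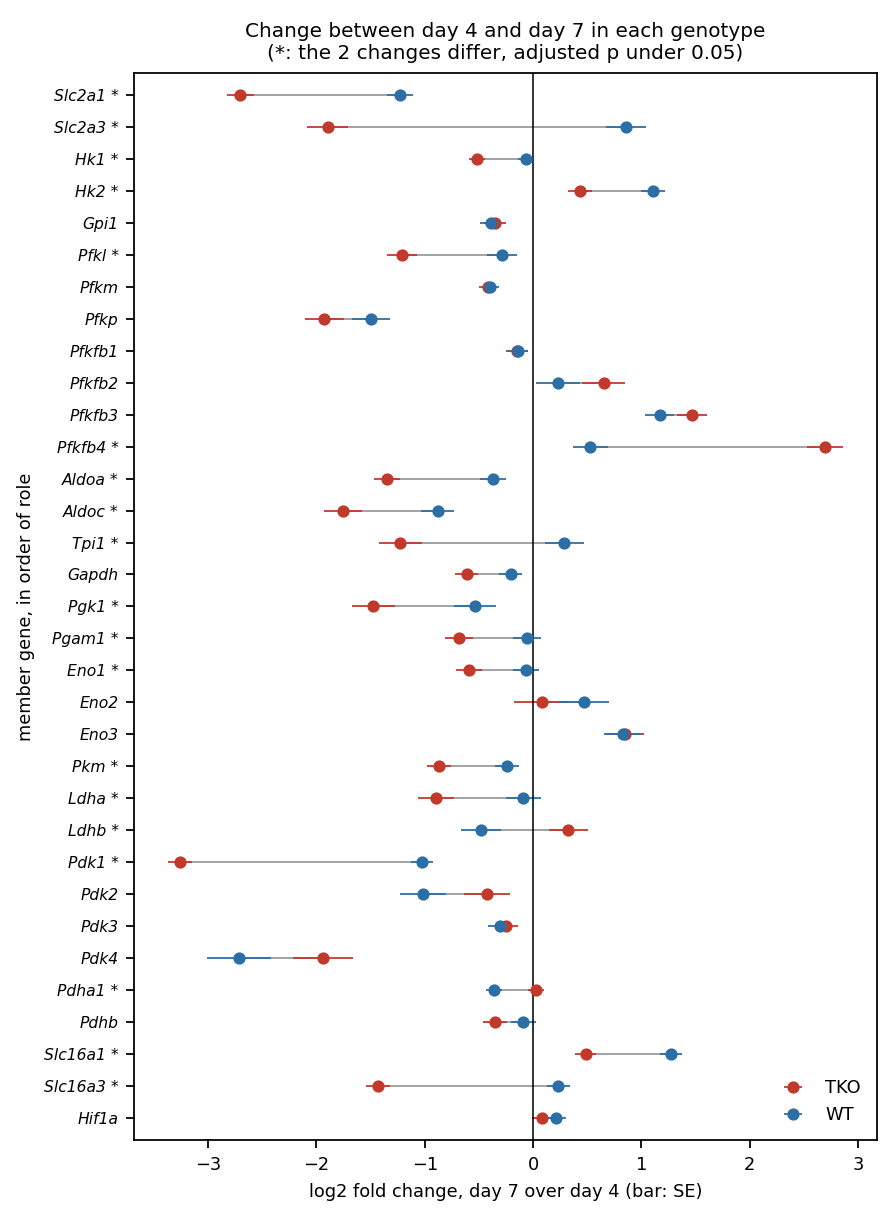
Log2 fold change of day 7 over day 4 for each member in TKO (red) and WT (blue), with bars of 1 SE from the edgeR fit; a star marks members whose 2 changes differ at an adjusted p under 0.05. Slc2a3 lies left of 0 in TKO (-1.90) and right of it in WT (0.86), and Pdk1 shows a fall of -3.26 in TKO beside -1.03 in WT.

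Of the glucose transporters, Slc2a1 encodes the widespread GLUT1 and Slc2a3 the high-affinity GLUT3. Slc2a1 in TKO read 186 and 184 CPM at day 0, 293 and 313 at day 2, 779.8 and 1044 at day 4, and 143 and 137 at day 7. Slc2a1 in WT read 165 and 152 CPM at day 0, 345 and 374 at day 2, 885 and 986 at day 4, and 381 and 418 at day 7. The pairs of libraries overlapped between genotypes at day 4 only, and at day 7 both TKO values were far under both WT values (log2 fold change -1.51, SE 0.12, adjusted p = 3.82e-07). Slc2a3 in TKO read 2269 and 2277 CPM at day 0, 274 and 348 at day 2, 1171 and 772 at day 4, and 286 and 236 at day 7. Slc2a3 in WT read 2147 and 2423 CPM at day 0, 354 and 385 at day 2, 806 and 1034 at day 4, and 1769.7 and 1560.05 at day 7. Day 0 and day 4 libraries overlapped, TKO day 4 replicate 1 being the highest and replicate 2 the lowest of that day, and the day 7 libraries stood apart (log2 fold change -2.67, SE 0.20, adjusted p = 3.18e-07). The level of Slc2a3 in TKO cells at day 7 was thus close to that at day 2, while WT cells had regained most of the day 0 level. As a share of the summed TPM of the pair, Slc2a3 made up 60.4% and 58.3% in the TKO day 7 libraries and 76.7% and 72.2% in the WT ones, against 89.95% and 90.4% in TKO and 89.95% and 92.1% in WT at day 0.

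Hexokinase traps glucose inside the cell, Hk1 being the constitutive and Hk2 the inducible form. Hk1 in TKO read 279 and 282 CPM at day 0, 28.9 and 28.3 at day 2, 35.3 and 33.7 at day 4, and 25.3 and 22.98 at day 7. Hk1 in WT read 282 and 303 CPM at day 0, 26.3 and 26.1 at day 2, 40.1 and 38.2 at day 4, and 36.98 and 37.9 at day 7. Both genotypes lost most Hk1 by day 2, with no overlap between days, and at day 7 TKO lay under WT (log2 fold change -0.63, SE 0.07, adjusted p = 1.13e-05). Hk2 in TKO read 639 and 645 CPM at day 0, 209 and 221 at day 2, 189 and 149.6 at day 4, and 243 and 216 at day 7. Hk2 in WT read 563 and 644 CPM at day 0, 183 and 184 at day 2, 184 and 165 at day 4, and 357 and 397 at day 7. Hk2 fell in both genotypes by day 2 and rose again by day 7, further in WT, and the day 7 libraries did not overlap (log2 fold change -0.72, SE 0.11, adjusted p = 0.000177). Hk2 lost its TKO day 7 against day 4 call without TKO day 4 replicate 2 or TKO day 7 replicate 1 (adjusted p 0.0795 to 0.0922).

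Gpi1, glucose phosphate isomerase, kept a narrow range, between 307 and 484 CPM across TKO and between 389 and 589 across WT, and was lower in TKO at day 4 (log2 fold change -0.41, SE 0.10, adjusted p = 0.00783) and day 7 (log2 fold change -0.37, SE 0.10, adjusted p = 0.00819). Gpi1 lost its day 4 call with only the compared groups fitted (adjusted p = 0.0774) and without WT replicate 2 (adjusted p = 0.113). Its day 4 value was -0.22 without WT replicate 2. The 3 phosphofructokinase genes encode the liver (Pfkl), muscle (Pfkm) and platelet (Pfkp) subunits. Pfkl in TKO read 52.2 and 51.3 CPM at day 0, 261 and 273 at day 2, 394 and 434 at day 4, and 177 and 180.5 at day 7. Pfkl in WT read 66.3 and 55.5 CPM at day 0, 353 and 352 at day 2, 416 and 609 at day 4, and 397 and 442 at day 7. Pfkl rose several-fold by day 2 in both genotypes, and at day 7 the TKO libraries were under the WT libraries (log2 fold change -1.23, SE 0.14, adjusted p = 1.12e-05). Pfkm in TKO read 27.1 and 24.4 CPM at day 0, 49.5 and 47.8 at day 2, 45.5 and 43.9 at day 4, and 34.6 and 32.3 at day 7. Pfkm in WT read 75.99 and 67.3 CPM at day 0, 63.7 and 60.5 at day 2, 112 and 108 at day 4, and 84.8 and 82.7 at day 7. TKO was lower on all 4 days with no overlap, at log2 fold changes of -1.48 (adjusted p = 2.89e-07), -0.35 (adjusted p = 0.0122), -1.30 (adjusted p = 2.59e-07) and -1.32 (adjusted p = 4.41e-08) at days 0, 2, 4 and 7. Pfkm lost its day 2 call without WT replicate 1, WT replicate 2, TKO replicate 1 or TKO replicate 2 (adjusted p 0.0515 to 0.12). Pfkp in TKO read 337 and 345 CPM at day 0, 139 and 150.02 at day 2, 78.4 and 50.3 at day 4, and 16.8 and 17.1 at day 7. Pfkp in WT read 356 and 454 CPM at day 0, 120.3 and 103 at day 2, 66.7 and 62.7 at day 4, and 21.02 and 24.9 at day 7. Pfkp fell at every step in both genotypes and was called between the genotypes on no day.

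Set side by side per length, the phosphofructokinases changed places during the course. Pfkp held 78.2% and 79.4% of the 3 genes' TPM in TKO and 69.4% and 74.7% in WT at day 0, but 7.20% and 6.80% in TKO and 3.53% and 4.13% in WT at day 7. Pfkl held 13.6% and 13.1% in TKO and 12.3% and 10.4% in WT at day 0, and 74.6% and 75.8% in TKO and 75.8% and 77.7% in WT at day 7. The exchange of the platelet for the liver subunit was seen in every library of both genotypes.

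The Pfkfb genes encode the enzymes that make and remove fructose 2,6-bisphosphate. Pfkfb4 in TKO read 6.95 and 7.62 CPM at day 0, 1.91 and 1.97 at day 2, 1.83 and 2.53 at day 4, and 14.9 and 13.3 at day 7. Pfkfb4 in WT read 5.70 and 5.30 CPM at day 0, 1.87 and 1.87 at day 2, 3.48 and 3.41 at day 4, and 4.66 and 5.28 at day 7. Pfkfb4 was the only member both at least 2-fold and higher in TKO at day 7, where the 2 genotypes did not overlap (log2 fold change 1.505, SE 0.16, adjusted p = 5.36e-06), after being lower in TKO at day 4 (-0.66 (adjusted p = 0.00953)). Pfkfb4 lost its day 4 call with only the compared groups fitted (adjusted p = 0.145) and without TKO replicate 1 (adjusted p = 0.0881). Pfkfb2 in TKO read 27.6 and 27.02 CPM at day 0, 10.9 and 10.5 at day 2, 9.36 and 10.9 at day 4, and 15.8 and 15.98 at day 7. Pfkfb2 in WT read 15.2 and 27.6 CPM at day 0, 7.62 and 6.82 at day 2, 9.26 and 8.34 at day 4, and 9.75 and 10.9 at day 7. Pfkfb2 libraries of TKO lay above those of WT from day 2 onward, with a call at day 7 only (log2 fold change 0.62, SE 0.20, adjusted p = 0.023). The WT day 0 libraries stood further apart from each other than any other pair of that gene. Pfkfb3 in TKO read 9.02 and 10.2 CPM at day 0, 20.9 and 23.03 at day 2, 12.9 and 10.4 at day 4, and 32.8 and 32.04 at day 7. Pfkfb3 in WT read 7.08 and 8.74 CPM at day 0, 22.7 and 19.2 at day 2, 15.7 and 16.1 at day 4, and 32.6 and 38.9 at day 7. Pfkfb3 rose in both genotypes by day 2 and again by day 7, and was lower in TKO at day 4 only (-0.44 (adjusted p = 0.0275)). Pfkfb3 lost its day 4 call with only the compared groups fitted (adjusted p = 0.0988) and without WT replicate 1, WT replicate 2 or TKO replicate 2 (adjusted p 0.0843 to 0.206). Pfkfb1 was lower in TKO at day 0 (-0.42), day 4 (-0.55) and day 7 (-0.56), with library values of 10.3 and 10.1 CPM in TKO and 15.6 and 14.4 in WT at day 7. Pfkfb1 lost its day 0 call with only the compared groups fitted (adjusted p = 0.133) and without WT replicate 1, TKO replicate 1 or TKO replicate 2 (adjusted p 0.0865 to 0.128).

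The aldolases Aldoa and Aldoc cleave fructose 1,6-bisphosphate. Aldoa in TKO read 817 and 814 CPM at day 0, 1104 and 1150.4 at day 2, 992 and 942 at day 4, and 380.3 and 379 at day 7. Aldoa in WT read 989 and 819.6 CPM at day 0, 1478 and 1579.9 at day 2, 1329.7 and 1753 at day 4, and 1127 and 1252 at day 7. From day 2 on, the TKO libraries lay under the WT libraries, and the gap widened to -1.65 (adjusted p = 2.42e-07) at day 7 beside -0.67 (adjusted p = 0.00101) at day 4 and -0.44 (adjusted p = 0.0284) at day 2. Aldoa lost its day 2 call without WT replicate 1, WT replicate 2, TKO replicate 1 or TKO replicate 2 (adjusted p 0.0503 to 0.179). Aldoc in TKO read 10.7 and 10.3 CPM at day 0, 5.96 and 6.59 at day 2, 12.6 and 13.2 at day 4, and 3.54 and 4.10 at day 7. Aldoc in WT read 20.4 and 17.8 CPM at day 0, 6.09 and 5.89 at day 2, 32.8 and 49.3 at day 4, and 21.5 and 23.1 at day 7. Aldoc was lower in TKO at days 0, 4 and 7 but not at day 2, where the libraries overlapped, and at day 7 the difference was among the largest (log2 fold change -2.54, SE 0.17, adjusted p = 1.05e-07). Aldoc lost its day 0 call without TKO replicate 2 (adjusted p = 0.0511). Aldoc lost its call in the interaction from day 4 to day 7 with only the compared groups fitted (adjusted p = 0.0557) and without TKO day 7 replicate 1 (adjusted p = 0.064). Tpi1 in TKO read 8.28 and 8.37 CPM at day 0, 17.3 and 13.1 at day 2, 11.6 and 10.4 at day 4, and 5.23 and 4.22 at day 7. Tpi1 in WT read 6.76 and 6.71 CPM at day 0, 23.9 and 17.2 at day 2, 19.2 and 20.99 at day 4, and 20.6 and 28.5 at day 7. Tpi1, triosephosphate isomerase, was higher in TKO libraries at day 0 without a call, and lower at day 4 (-0.86 (adjusted p = 0.00364)) and day 7 (log2 fold change -2.38, SE 0.20, adjusted p = 7.7e-07). The transcripts matched to Tpi1 held only 10.02 to 28.4 TPM in TKO and 9.33 to 42.8 in WT. Transcripts that matched no annotated identifier were not used here, and the most abundant of them in each library held 559 to 824 TPM in TKO and 645 to 1075 in WT. Their genes are not given in the sources used here, so the Tpi1 values may come from a small share of its transcript. A second gene identifier with the symbol Aldoa, at 3.08 to 7.89 TPM, was not used.

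Gapdh, which makes NADH, is often used as a reference gene, and it read 3551 and 3554 CPM in TKO and 5596 and 5617 in WT at day 7 (log2 fold change -0.66, SE 0.10, adjusted p = 0.00018), after day 4 values of 5651 and 5218 in TKO and 6019 and 6929 in WT. Copies elsewhere in the genome at 95% identity or more, 91 for Gapdh, held 0.954% to 3.27% of the TPM summed over the gene and its copies. Pgk1, phosphoglycerate kinase, makes the first ATP of the route. Pgk1 in TKO read 275 and 269 CPM at day 0, 591 and 566 at day 2, 823 and 872 at day 4, and 309 and 299.8 at day 7. Pgk1 in WT read 387 and 311 CPM at day 0, 889 and 977 at day 2, 1089.5 and 1958 at day 4, and 1004 and 1095 at day 7. Pgk1 was under WT in every TKO library from day 0 on, with calls at day 2 (-0.69 (adjusted p = 0.0357)), day 4 (-0.85 (adjusted p = 0.00631)) and day 7 (log2 fold change -1.78, SE 0.20, adjusted p = 1.47e-05). WT day 4 replicate 2 stood far above its partner. Pgk1 lost its day 4 call with only the compared groups fitted (adjusted p = 0.0774) and without WT replicate 2 (adjusted p = 0.0558). Without WT replicate 2 the day 4 value of Pgk1 was -0.36. Pgk1 lost its day 2 call when low counts were not filtered (adjusted p = 0.106) and without WT replicate 1, WT replicate 2, TKO replicate 1 or TKO replicate 2 (adjusted p 0.0723 to 0.218). Pgk1 lost its call in the interaction from day 4 to day 7 when low counts were not filtered (adjusted p = 0.0892), with only the compared groups fitted (adjusted p = 0.133) and without WT day 7 replicate 2, TKO day 4 replicate 2, TKO day 7 replicate 1 or TKO day 7 replicate 2 (adjusted p 0.0595 to 0.0836). That interaction was -1.43 without WT day 4 replicate 2 and -0.61 without WT day 4 replicate 1. Pgam1 in TKO read 444 and 441 CPM at day 0, 759.97 and 757 at day 2, 610.4 and 595 at day 4, and 384 and 366 at day 7. Pgam1 in WT read 486 and 401 CPM at day 0, 928 and 1044 at day 2, 639.6 and 897 at day 4, and 728 and 746 at day 7. Pgam1, phosphoglycerate mutase, was called at day 7 alone (log2 fold change -0.98, SE 0.13, adjusted p = 5.13e-05). Pgam1 lost its call in the interaction from day 4 to day 7 with only the compared groups fitted (adjusted p = 0.065) and without WT day 4 replicate 1, WT day 7 replicate 1, WT day 7 replicate 2 or TKO day 7 replicate 2 (adjusted p 0.0512 to 0.0804). Copies held up to 12.7% of the summed TPM of Pgk1 and up to 10.9% of that of Pgam1.

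The enolases make phosphoenolpyruvate, Eno1 in most cells, Eno2 in neurons and Eno3 in muscle. Eno1 in TKO read 361 and 349 CPM at day 0, 814 and 859.8 at day 2, 749 and 773 at day 4, and 503 and 508 at day 7. Eno1 in WT read 422 and 316 CPM at day 0, 1157 and 1293 at day 2, 966 and 1131 at day 4, and 956 and 1049.8 at day 7. TKO libraries lay under WT libraries from day 2 on, and the calls were -0.55 (adjusted p = 0.0101) at day 2, -0.46 (adjusted p = 0.0114) at day 4 and -0.99 (adjusted p = 2.26e-05) at day 7. Eno1 lost its day 2 call without WT replicate 2, TKO replicate 1 or TKO replicate 2 (adjusted p 0.0687 to 0.0999). Eno1 lost its day 4 call without WT replicate 2 or TKO replicate 1 (adjusted p 0.0513 to 0.112). Eno1 lost its call in the interaction from day 4 to day 7 without WT day 4 replicate 1, WT day 7 replicate 2, TKO day 4 replicate 1, TKO day 4 replicate 2, TKO day 7 replicate 1 or TKO day 7 replicate 2 (adjusted p 0.0523 to 0.121). Near-identical copies, Eno1b first among them, held 65.3% to 69.6% of the TPM summed over Eno1 and its copies, so the level of Eno1 itself is uncertain. With the counts of such copies added, an alternative chosen after seeing the data, every comparison gave the same number of called members. Eno2 in TKO read 1.99 and 2.11 CPM at day 0, 1.59 and 1.38 at day 2, 2.52 and 2.83 at day 4, and 2.90 and 2.75 at day 7. Eno2 in WT read 2.70 and 2.66 CPM at day 0, 2.05 and 1.76 at day 2, 8.41 and 4.37 at day 4, and 8.50 and 9.28 at day 7. Eno2 was low throughout, and TKO lay under WT at day 4 (-1.26 (adjusted p = 0.00174)) and day 7 (-1.65 (adjusted p = 0.000124)). Eno2 lost its day 4 call with only the compared groups fitted (adjusted p = 0.0626). Its day 4 value was -0.71 without WT replicate 1. Eno2 lost its TKO day 4 against day 2 call without TKO day 2 replicate 1, TKO day 2 replicate 2 or TKO day 4 replicate 2 (adjusted p 0.0519 to 0.115). Eno3 in TKO read 7.20 and 9.03 CPM at day 0, 18.3 and 19.3 at day 2, 7.40 and 5.98 at day 4, and 11.8 and 12.3 at day 7. Eno3 in WT read 13.6 and 10.7 CPM at day 0, 17.8 and 21.04 at day 2, 14.4 and 10.7 at day 4, and 21.02 and 23.6 at day 7. Eno3 was lower in TKO at days 0, 4 and 7 (-0.58 (adjusted p = 0.0448), -0.91 (adjusted p = 0.00158) and -0.89 (adjusted p = 0.000817)). Eno3 lost its day 0 call with only the compared groups fitted (adjusted p = 0.167) and without WT replicate 1, TKO replicate 1 or TKO replicate 2 (adjusted p 0.0845 to 0.321). Eno3 lost its WT day 4 against day 2 call without WT day 2 replicate 2 or WT day 4 replicate 2 (adjusted p 0.0609 to 0.0736).

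Pkm, pyruvate kinase, ends the route to pyruvate. Pkm in TKO read 1144 and 1142 CPM at day 0, 2906 and 3006 at day 2, 2859 and 2857 at day 4, and 1564 and 1567 at day 7. Pkm in WT read 1229 and 1065 CPM at day 0, 3744 and 3896 at day 2, 3169 and 4111 at day 4, and 2986 and 3189 at day 7. Pkm rose in both genotypes by day 2, and at day 7 the TKO libraries lay between the TKO levels of day 0 and day 2 and apart from WT (log2 fold change -0.98, SE 0.11, adjusted p = 1.03e-05). Smaller differences were called at day 2 (-0.37 (adjusted p = 0.0398)) and day 4 (-0.35 (adjusted p = 0.0283)). Pkm lost its day 2 call without WT replicate 1, WT replicate 2, TKO replicate 1 or TKO replicate 2 (adjusted p 0.0723 to 0.202). Pkm lost its day 4 call with only the compared groups fitted (adjusted p = 0.115) and without WT replicate 2, TKO replicate 1 or TKO replicate 2 (adjusted p 0.0813 to 0.353). The day 4 value of Pkm was -0.15 without WT replicate 2 and -0.53 without WT replicate 1.

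Pkm transcripts carry either of a pair of mutually exclusive exons, exon 9 in the M1 form and exon 10 in the M2 form, which are shown here because the choice between them sets which enzyme is made. Both are 167 bases long on the plus strand of chromosome 9 of GRCm38 (GENCODE vM21), at chr9:59675029-59675195 for M1 and chr9:59675568-59675734 for M2, coding exons of Pkm. They are 61.7% identical, and capitals mark the 64 positions at which they differ.
Pkm exon 9 (M1): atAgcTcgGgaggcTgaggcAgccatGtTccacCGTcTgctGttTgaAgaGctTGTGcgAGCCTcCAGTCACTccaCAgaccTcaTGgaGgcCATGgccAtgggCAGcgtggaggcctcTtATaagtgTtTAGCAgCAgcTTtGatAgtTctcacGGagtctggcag
Pkm exon 10 (M2): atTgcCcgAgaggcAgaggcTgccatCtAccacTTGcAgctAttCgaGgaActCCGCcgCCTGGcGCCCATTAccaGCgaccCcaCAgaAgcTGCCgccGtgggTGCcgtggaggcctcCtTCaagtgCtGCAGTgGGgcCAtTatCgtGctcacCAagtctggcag

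The M2 form made up nearly all of the estimated counts assigned to either form. Its share in TKO libraries was 98.0% and 97.4% at day 0, 91.0% and 92.5% at day 2, 94.1% and 96.0% at day 4 and 96.3% and 95.9% at day 7. In WT libraries the M2 share was 98.6% and 98.3% at day 0, 94.4% and 95.9% at day 2, 94.4% and 95.2% at day 4 and 97.4% and 97.7% at day 7. Day 0 was the highest and day 2 or 4 the lowest in both genotypes, and TKO lay under WT at days 0, 2 and 7 but overlapped it at day 4. These shares are given as a description without a test, because each form is 1 annotated transcript (Pkm-201 for M2, Pkm-202 for M1), the 2 transcripts also differ in length outside these exons, and the counts are estimates split between them.

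Lactate dehydrogenase exchanges pyruvate and lactate, with the Ldha subunit known to favour lactate. Ldha in TKO read 213 and 210.4 CPM at day 0, 799.9 and 716 at day 2, 930.2 and 1204 at day 4, and 567 and 579.7 at day 7. Ldha in WT read 302 and 239 CPM at day 0, 1147 and 1206 at day 2, 1160.4 and 1697 at day 4, and 1318 and 1367 at day 7. Ldha rose by day 2 in both genotypes, and the TKO libraries lay under the WT libraries at days 0, 2 and 7 while a pair overlapped at day 4. The day 7 difference was called (log2 fold change -1.23, SE 0.16, adjusted p = 5.34e-05), as was that of day 2 (-0.63 (adjusted p = 0.0219)). Ldha lost its day 2 call without WT replicate 1, WT replicate 2, TKO replicate 1 or TKO replicate 2 (adjusted p 0.0554 to 0.183). Ldha lost its call in the interaction from day 4 to day 7 with only the compared groups fitted (adjusted p = 0.0874) and without WT day 4 replicate 1, WT day 7 replicate 2, TKO day 4 replicate 2, TKO day 7 replicate 1 or TKO day 7 replicate 2 (adjusted p 0.0592 to 0.0701). Ldhb in TKO read 66.2 and 69.8 CPM at day 0, 20.5 and 15.9 at day 2, 17.2 and 15.1 at day 4, and 19.1 and 21.5 at day 7. Ldhb in WT read 134 and 91.1 CPM at day 0, 31.5 and 27.9 at day 2, 14.4 and 17.7 at day 4, and 12.4 and 10.6 at day 7. Ldhb, the heart-type subunit, fell by day 2 in both genotypes, and was lower in TKO at day 0 (-0.73 (adjusted p = 0.0149)) and day 2 (-0.71 (adjusted p = 0.0206)) but higher at day 7 (log2 fold change 0.82, SE 0.18, adjusted p = 0.00281). Ldhb lost its day 0 call with only the compared groups fitted (adjusted p = 0.129) and without WT replicate 1, TKO replicate 1 or TKO replicate 2 (adjusted p 0.0923 to 0.126). The day 0 value of Ldhb was -0.42 without WT replicate 1. Ldhb lost its day 2 call without WT replicate 1, WT replicate 2 or TKO replicate 2 (adjusted p 0.075 to 0.206). Of the TPM of the pair, Ldhb made up 33.4% and 35.2% in TKO and 38.95% and 35.6% in WT at day 0, and 5.34% and 5.57% in TKO and 1.37% and 1.10% in WT at day 7.

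**Figure D3:**
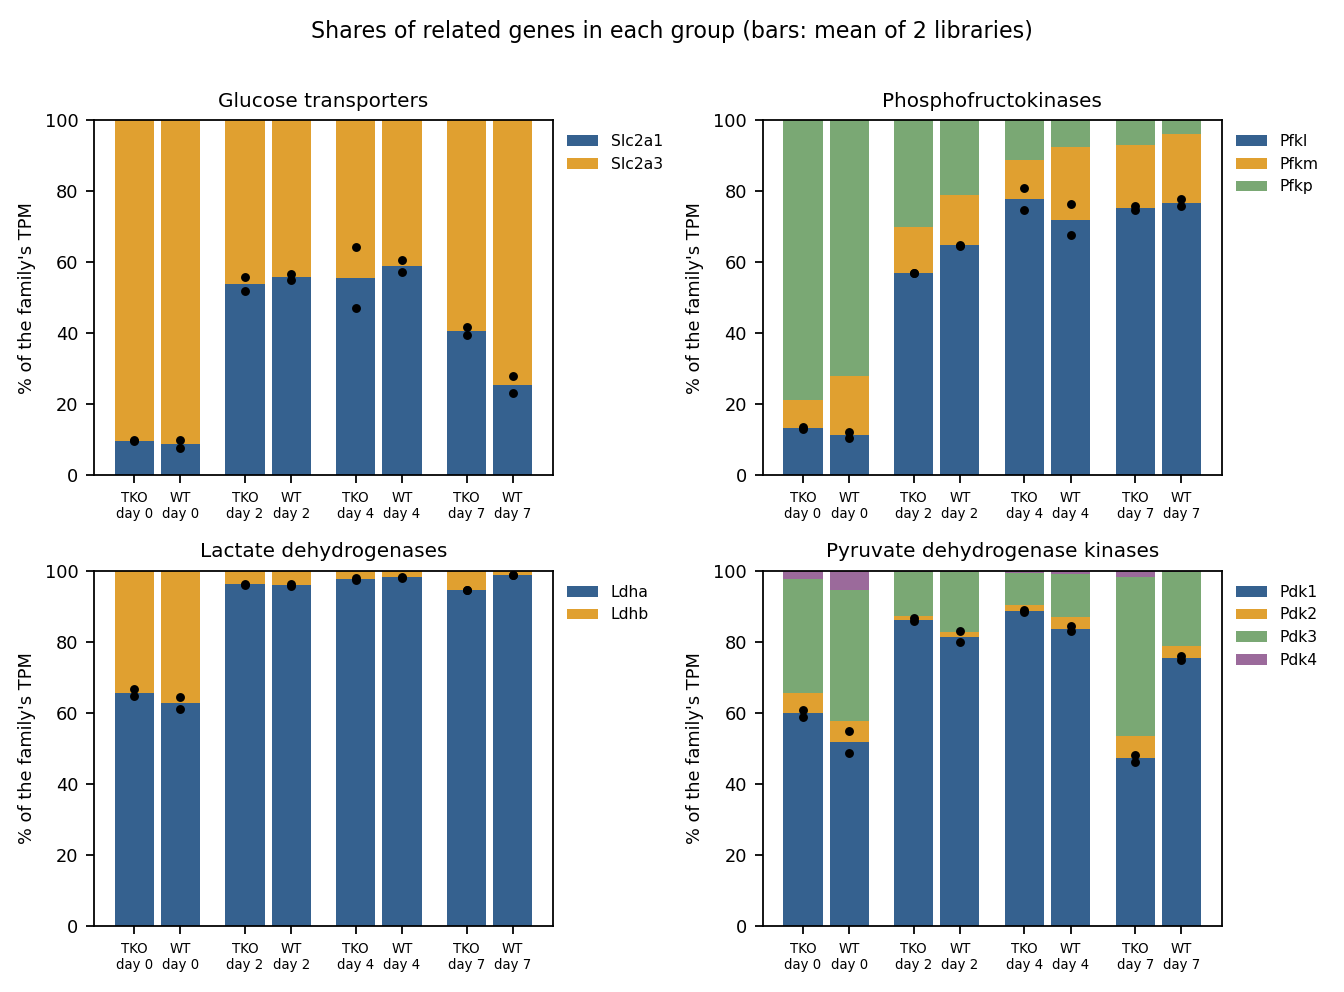
Bars give the mean share of each gene in the summed TPM of its family, in percent, for the 2 libraries of each group, TKO left of WT on each day; black points are the 2 libraries' values for the gene at the bottom of the bar. Pfkp gives way to Pfkl after day 0 in both genotypes. Ldha already leads at day 0, with means of 65.7% in TKO and 62.7% in WT, and the smaller share of Ldhb shrinks after that. At day 7 Pdk1 holds 46.1% and 48.2% in TKO libraries and 75.95% and 74.8% in WT libraries.

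Pyruvate dehydrogenase kinases switch off the entry of pyruvate into mitochondria, and Pdk1 is the form best known as a hypoxia-inducible factor target. Pdk1 in TKO read 57.4 and 59.3 CPM at day 0, 291 and 281 at day 2, 351 and 302 at day 4, and 34.01 and 34.00 at day 7. Pdk1 in WT read 57.6 and 57.1 CPM at day 0, 242 and 245 at day 2, 227 and 287 at day 4, and 122 and 130.02 at day 7. Pdk1 libraries overlapped between the genotypes at day 0, and the gene was slightly above WT at day 4 (0.34 (adjusted p = 0.0189)), and by day 7 lower in TKO than at any other point of the course (log2 fold change -1.89, SE 0.10, adjusted p = 1.45e-08). Pdk1 lost its day 4 call with only the compared groups fitted (adjusted p = 0.125) and without WT replicate 1 or TKO replicate 1 (adjusted p 0.172 to 0.203). Its day 4 value was 0.18 without WT replicate 1, 0.52 without WT replicate 2 and 0.23 without TKO replicate 1. Its TPM share among the 4 kinases at day 7 was 46.1% and 48.2% in TKO and 75.95% and 74.8% in WT, with Pdk3 at 45.1% and 44.05% in TKO and 20.2% and 21.6% in WT. Pdk4 in TKO read 2.82 and 2.97 CPM at day 0, 1.20 and 1.17 at day 2, 5.73 and 3.17 at day 4, and 1.44 and 0.882 at day 7. Pdk4 in WT read 7.70 and 8.62 CPM at day 0, 1.36 and 1.48 at day 2, 3.76 and 4.03 at day 4, and 0.603 and 0.579 at day 7. Pdk4, a kinase known to be induced by fasting, was low throughout, and the TKO libraries lay under WT at day 0 (log2 fold change -1.49, SE 0.26, adjusted p = 0.00228) and above at day 7. Pdk2 in TKO read 4.16 and 4.85 CPM at day 0, 2.32 and 2.63 at day 2, 4.00 and 5.86 at day 4, and 3.28 and 4.05 at day 7. Pdk2 in WT read 5.79 and 5.10 CPM at day 0, 2.99 and 2.62 at day 2, 7.47 and 10.03 at day 4, and 4.63 and 4.00 at day 7. Pdk2 was called at day 4 alone (-0.83 (adjusted p = 0.009)). Pdk2 lost its day 4 call with only the compared groups fitted (adjusted p = 0.0859) and without WT replicate 2 or TKO replicate 1 (adjusted p 0.0793 to 0.0899). Pdk3 lay between 24.4 and 46.5 CPM over all libraries and was called between the genotypes on no day.

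Pdha1 and Pdhb encode subunits of the pyruvate dehydrogenase that these kinases act on. Pdha1 in TKO read 253 and 246 CPM at day 0, 162 and 159 at day 2, 202 and 182 at day 4, and 202 and 189 at day 7. Pdha1 in WT read 312 and 304 CPM at day 0, 179 and 187 at day 2, 219.9 and 240.5 at day 4, and 179.6 and 178 at day 7. Pdha1 was lower in TKO at day 0 (-0.30 (adjusted p = 0.0165)) and day 4 (-0.26 (adjusted p = 0.0164)), and at day 7 the TKO libraries lay above the WT libraries without a call (log2 fold change 0.12, SE 0.07, adjusted p = 0.188). Pdha1 lost its day 0 call with only the compared groups fitted (adjusted p = 0.18) and without TKO replicate 1 or TKO replicate 2 (adjusted p 0.108 to 0.163). Pdha1 lost its day 4 call with only the compared groups fitted (adjusted p = 0.0938) and without WT replicate 2 or TKO replicate 2 (adjusted p 0.121 to 0.14). Pdhb read 59.5 and 57.2 CPM in TKO and 71.3 and 72.4 in WT at day 7 (log2 fold change -0.30, SE 0.11, adjusted p = 0.0462), a difference smaller than that of most other called members.

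Lactate leaves through the monocarboxylate transporters MCT1 (Slc16a1) and MCT4 (Slc16a3), MCT4 being the form of highly glycolytic cells. Slc16a1 in TKO read 147 and 149.7 CPM at day 0, 173 and 171 at day 2, 157 and 129 at day 4, and 209 and 192 at day 7. Slc16a1 in WT read 187 and 176 CPM at day 0, 187 and 208 at day 2, 194 and 186 at day 4, and 492 and 428 at day 7. Slc16a1 changed little until day 4, when it was lower in TKO (-0.41 (adjusted p = 0.00705)), and by day 7 it rose much further in WT, so that the genotypes stood apart (log2 fold change -1.20, SE 0.10, adjusted p = 6.14e-07). Slc16a1 lost its day 4 call with only the compared groups fitted (adjusted p = 0.0553) and without TKO replicate 2 (adjusted p = 0.0655). Slc16a3 in TKO read 5.81 and 5.72 CPM at day 0, 284 and 309 at day 2, 188 and 232 at day 4, and 77.5 and 78.5 at day 7. Slc16a3 in WT read 11.4 and 11.6 CPM at day 0, 369 and 398 at day 2, 195 and 227 at day 4, and 229 and 268 at day 7. Slc16a3 went up by day 2 in both genotypes, and between day 4 and day 7 fell in TKO cells (-1.43 (adjusted p = 3.11e-07)) while the WT change was not called (0.23 (adjusted p = 0.108)). TKO lay under WT at day 0 (log2 fold change -0.99, SE 0.13, adjusted p = 0.000391), day 2 (-0.37 (adjusted p = 0.0374)) and day 7 (log2 fold change -1.67, SE 0.11, adjusted p = 8.33e-08), and overlapped WT at day 4. Slc16a3 lost its day 2 call without WT replicate 1, WT replicate 2, TKO replicate 1 or TKO replicate 2 (adjusted p 0.0553 to 0.233). Slc16a3 lost its call in the interaction from day 0 to day 2 without WT day 0 replicate 1, WT day 0 replicate 2, WT day 2 replicate 1, WT day 2 replicate 2, TKO day 0 replicate 1, TKO day 0 replicate 2, TKO day 2 replicate 1 or TKO day 2 replicate 2 (adjusted p 0.0507 to 0.136).

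Hif1a itself, whose protein is known to be controlled mostly by its stability, differed little between the genotypes at the transcript level. Hif1a in TKO read 158 and 155 CPM at day 0, 204 and 197 at day 2, 178 and 186 at day 4, and 199 and 187 at day 7. Hif1a in WT read 126 and 158 CPM at day 0, 221 and 213 at day 2, 206 and 196 at day 4, and 237 and 229 at day 7. The day 7 TKO libraries lay under the WT libraries (log2 fold change -0.27, SE 0.09, adjusted p = 0.0266), a far smaller difference than at Slc2a3, Pdk1 or Slc16a3, and no other day was called between the genotypes. Hif1a rose between day 0 and day 2 in TKO (0.36 (adjusted p = 0.0041)) and in WT (0.61 (adjusted p = 4.99e-05)), and no later step was called.

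**Figure D4:**
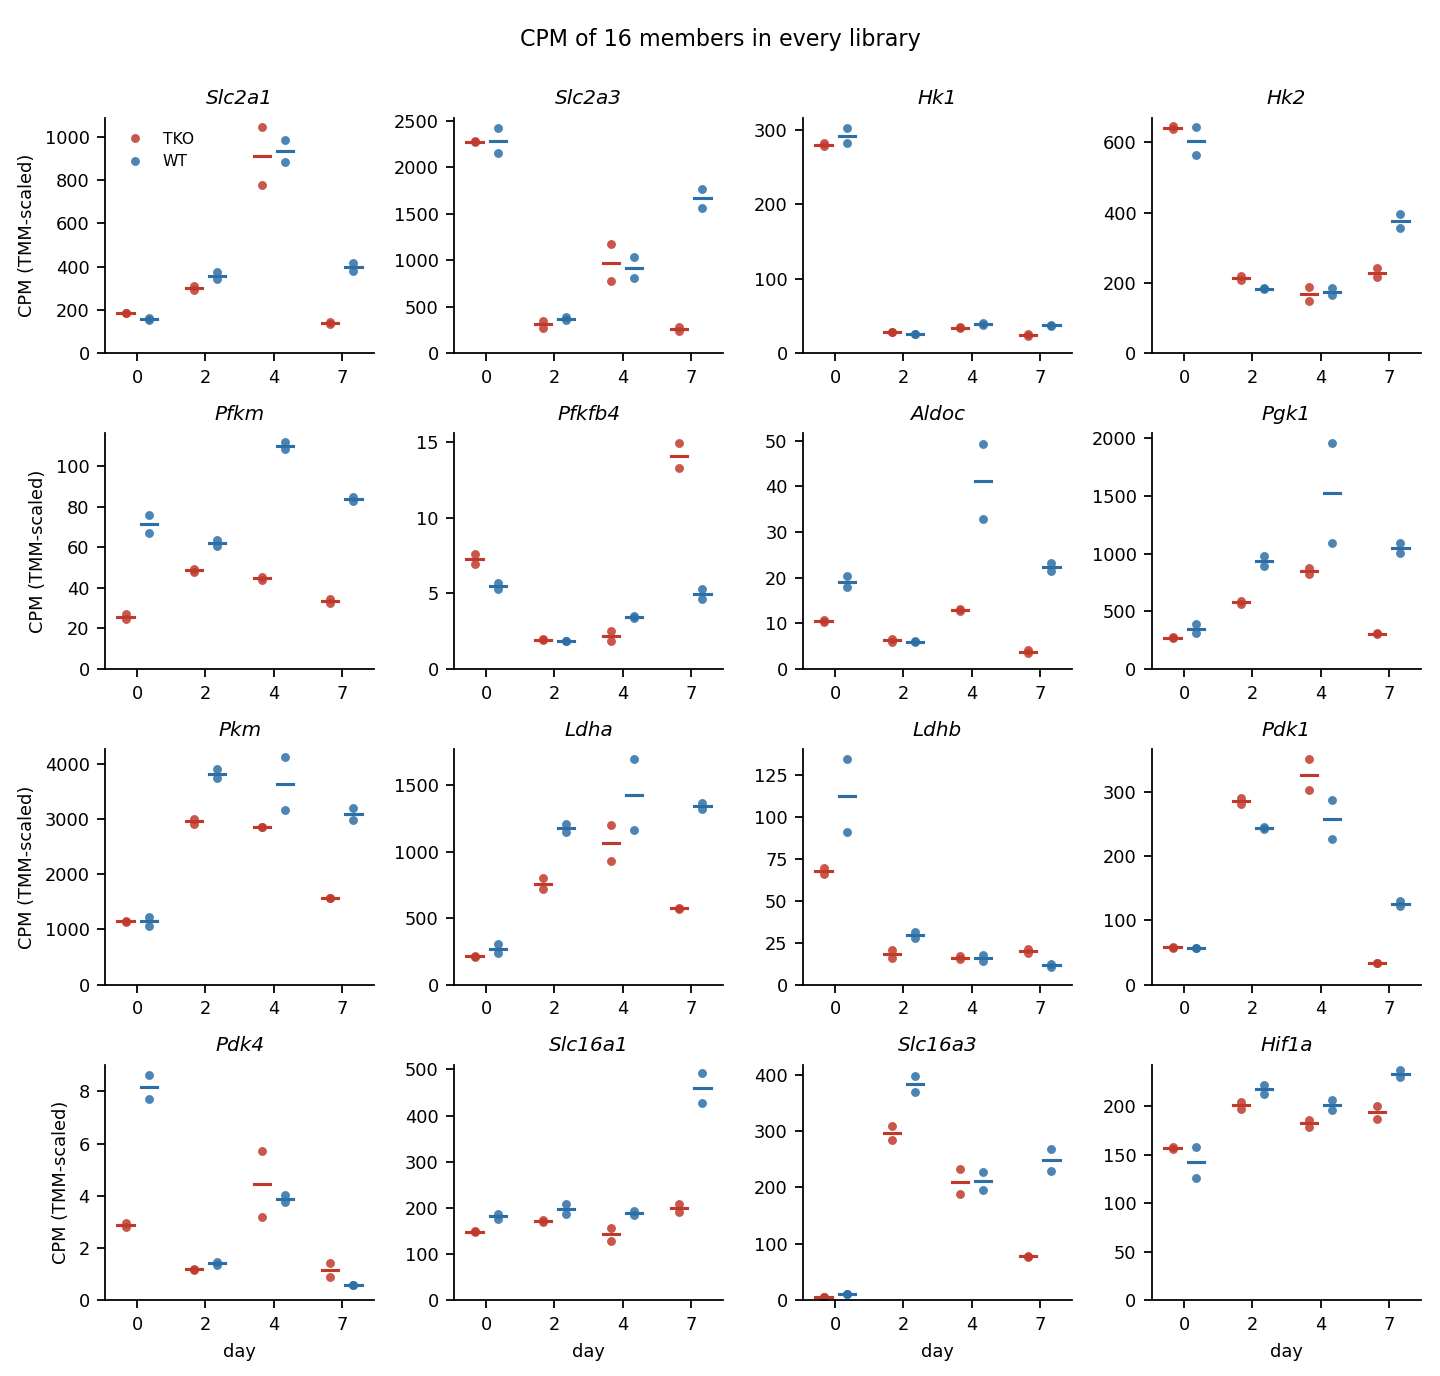
CPM (TMM-scaled, linear axes from 0) of 16 members in every library by day, TKO (red) left of WT (blue); points are single libraries and short lines the mean of 2. At day 7 the TKO points lie under the WT points for Slc2a1, Slc2a3, Pgk1, Ldha, Pdk1 and Slc16a3, and over them for Pfkfb4, Ldhb and Pdk4.

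Because many members moved together between day 4 and day 7, and hypoxia-inducible factor is known to bind ACGTG or GCGTG, these letters were sought in the promoter windows of the members (RefSeq sequences on GRCm38.p6, 250 bases before to 50 after a start, both strands, overlaps counted). Of the 33 members 32 had a window, Slc2a3 having none. Of these, 29 (90.6%) held a match in any window, against 46.7% of all genes with a window. A gene can have several windows, the members holding 51 for 32 genes and all genes 32851 for 27025. Counted by window, 76.5% of the members' windows held a match, against 43.8% of all windows. The members' windows had a median of 18 CpG against 7 over all windows, and both motifs hold a CpG, so the shares are not those of windows alike in composition. The upstream 250 bases are shown for Slc2a1, Pdk1 and Slc16a3, which stand for uptake, kinase control and export and were all over 2-fold lower in TKO at day 7, for Ldha with its cluster of matches, and for Pfkfb4, which was higher. All are on the plus strand, at chr4:119108495-119108744, chr2:71872974-71873223, chr11:120948817-120949066, chr7:46845554-46845803 and chr9:108991652-108991901 in that order, and capitals mark a match on either strand.
Slc2a1: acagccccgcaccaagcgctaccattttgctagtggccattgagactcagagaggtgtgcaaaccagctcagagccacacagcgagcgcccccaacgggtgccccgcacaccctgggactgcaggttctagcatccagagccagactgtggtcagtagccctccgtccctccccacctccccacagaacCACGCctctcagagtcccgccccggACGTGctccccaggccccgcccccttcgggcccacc
Pdk1: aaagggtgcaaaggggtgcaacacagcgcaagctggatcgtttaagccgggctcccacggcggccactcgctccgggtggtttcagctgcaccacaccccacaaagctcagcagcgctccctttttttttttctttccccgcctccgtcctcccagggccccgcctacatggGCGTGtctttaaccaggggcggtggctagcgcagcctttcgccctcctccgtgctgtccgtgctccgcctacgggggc
Slc16a3: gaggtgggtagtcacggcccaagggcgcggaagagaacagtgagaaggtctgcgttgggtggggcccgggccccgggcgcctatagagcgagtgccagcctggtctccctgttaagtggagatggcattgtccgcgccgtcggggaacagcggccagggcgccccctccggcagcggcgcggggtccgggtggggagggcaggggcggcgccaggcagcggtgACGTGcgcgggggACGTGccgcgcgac
Ldha: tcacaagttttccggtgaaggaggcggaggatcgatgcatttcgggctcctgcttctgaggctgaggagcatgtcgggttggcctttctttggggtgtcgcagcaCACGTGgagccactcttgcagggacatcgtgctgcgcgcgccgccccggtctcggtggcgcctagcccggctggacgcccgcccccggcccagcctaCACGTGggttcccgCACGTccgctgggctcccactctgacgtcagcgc
Pfkfb4: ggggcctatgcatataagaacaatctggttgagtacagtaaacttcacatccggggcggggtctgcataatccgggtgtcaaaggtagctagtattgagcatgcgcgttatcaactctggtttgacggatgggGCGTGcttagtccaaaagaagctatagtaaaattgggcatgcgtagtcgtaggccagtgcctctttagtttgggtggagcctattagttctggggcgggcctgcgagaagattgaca

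These stretches hold 2 matches at Slc2a1, 1 at Pdk1, 2 at Slc16a3, 5 at Ldha, where CACGTG reads as a match on both strands, and 1 at Pfkfb4. These genes were picked for display, Ldha for its matches, and 29 of the 32 members with a window held a match. The matches shown therefore cannot tell whether a match goes with the direction of change. A gene can have several windows, and only the stretch located above is shown for each. A match describes letters only, and no binding was measured.

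Genes around the route were read from lists written like the members. Of 19 genes of the hypoxia-inducible factor pathway and hypoxia response, 10 were lower and 1 higher in TKO at day 7, with a median of -0.72 (log2), where 21.1% and 23.4% of all genes were called. The mitophagy gene Bnip3 changed most, by -3.45 (adjusted p = 5.57e-08), and read 7.79 and 8.35 CPM in TKO and 84.1 and 92.8 in WT at day 7, against 61.5 and 70.1 in TKO and 83.6 and 138 in WT at day 4. Vegfa, the angiogenic growth factor, changed by -1.84 (adjusted p = 4.51e-09), and Ndrg1, a hypoxia-responsive gene, was higher, by 1.51 (adjusted p = 1.13e-06). The same list gave 3 lower and 2 higher at day 0, 2 and 1 at day 2, and 5 and 3 at day 4. Over all genes 8.16% were lower and 4.52% higher at day 0, 5.52% and 7.91% at day 2, and 11.1% and 17.8% at day 4. Its changes between day 4 and day 7 were more negative in TKO at 10 genes and more positive at 1, where 9.81% and 8.96% of all genes were called.

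The counts of the further lists at day 7 stand beside 21.1% of all genes called lower and 23.4% called higher. The pentose phosphate pathway, which branches off after hexokinase, had 4 of 7 genes lower and 0 higher in TKO at day 7, Tkt most (-0.48 (adjusted p = 0.000477)), then G6pdx (-0.43 (adjusted p = 0.000139)) and Pgls (-0.39 (adjusted p = 0.0371)), all well under the changes of Slc2a3 or Pdk1. The other parts and phosphatases of the pyruvate dehydrogenase complex had 4 of 6 lower and 0 higher, Pdp2 most (-0.43 (adjusted p = 0.0103)). Of 18 other sugar and monocarboxylate transport genes 6 were higher and 4 lower, the count lower being near the background. The MCT chaperone Emb read 303 and 316 CPM in TKO and 1087 and 857 in WT (-1.65 (adjusted p = 6.32e-07)), while the largest log2 rise, of Slc2a2 (2.63 (adjusted p = 0.044)), was at under 1 CPM in every library. Of 15 other isoenzymes and gluconeogenic genes, 12 passed the filter, with 5 higher and 3 lower, the count lower again near the background. The testis lactate dehydrogenase gene Ldhc had the largest rise among them, at 2.64 and 2.70 CPM in TKO and 0.290 and 0.458 in WT (2.83 (adjusted p = 1.71e-05)). Of 9 regulators outside the hypoxia pathway 4 were lower and 0 higher, led by the RNA-binding protein gene Lin28a (-1.17 (adjusted p = 8.07e-08)), Lin28b (-0.63 (adjusted p = 2.47e-05)) and Mycn (-0.50 (adjusted p = 0.00114)).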

How the data were processed

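Bulk messenger RNA of 16 libraries, 2 for each of 8 groups, was read from tables of estimated counts (expected counts) and TPM per transcript, as deposited; the column names are those of kallisto, per the file headers. The tool was kallisto, with no version given, and the genome builds GRCm38 and mm10, per the submitters' processing notes. Each library listed 119414 transcripts, of which 116728 matched GENCODE vM21 by identifier; unmatched transcripts held 0.946% to 1.05% of the counts and were not used here. Deposited estimated counts of a gene's transcripts were added up and rounded to whole numbers, and deposited TPM were summed per gene to set genes side by side, where depth is scaled away.

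The 35975 genes were filtered to 18489 with filterByExpr by group and fitted with edgeR 4.0.16 in R 4.3.3 (TMM, robust quasi-likelihood, 1 mean per group, all 16 libraries, 8 residual degrees of freedom, common biological coefficient of variation 0.111). Calls are at an adjusted p under 0.05, by Benjamini-Hochberg across the 18489 genes. SE is the log2 fold change over the square root of its test statistic. The comparisons were 4 of TKO against WT, 6 steps between neighbouring days within a genotype and 3 interactions; neighbouring comparisons share libraries. The code was tested on simulated counts for TKO against WT at day 7. It called 40.3% of the 1.5-fold changes put in, 91% of the 2-fold and 93.9% of the 4-fold ones. A member without a call may therefore still differ by a small amount. The labels call the samples biological replicates without saying how cultures were separated, so p-values measure the spread between these samples. The spread of a gene is pooled over all 8 groups, whose replicates differed unequally. Over the better-expressed genes, the median absolute log2 difference between replicates ran from 0.039 at TKO day 0 to 0.218 at WT day 0.

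The members and lists were chosen with earlier results of these data known. Values in every library are given for up to 6 called members per direction and day between genotypes, up to 4 per direction and step by the WT fit, members called in an interaction, and Slc2a1, Slc2a3, Hk1, Hk2, Pkm, Ldha, Ldhb, Pdk1, Slc16a1, Slc16a3 and Hif1a; of other lists up to 3 called genes are named. Copies of members were found with blastn 2.17.0 (at least 95% identity over 200 bases). Alternatives were DESeq2 1.42.0, its size factors in edgeR, no filter, protein-coding genes only, copies added, a replicate block, only the compared groups, and leaving out each library.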

Additional observations from a re-analysis of the deposited data

Results flagged for a closer look

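The change between 2 neighbouring days differed between TKO and WT at 25 places in the members, by edgeR's test of the difference itself at a Benjamini-Hochberg adjusted p under 0.05. These were 3 of the 33 members from day 0 to day 2, 3 from day 2 to day 4 and 19 from day 4 to day 7. Of all genes tested, 5.76% were called more positive in TKO and 1.8% more negative in the first step. The shares were 7.75% and 3.95% in the next step and 8.96% and 9.81% in the last. Only the count from day 4 to day 7 stood well above the shares. Each value given for a gene is the log2 change in TKO minus that in WT, with both changes beside it. Between day 0 and day 2 the changes differed at Pfkm by 1.12 (0.92 in TKO and -0.20 in WT), Aldoc by 0.93 (-0.74 in TKO and -1.67 in WT) and Slc16a3 by 0.62 (5.69 in TKO and 5.06 in WT). The WT change of Pfkm was -0.12 without WT day 0 replicate 1 and -0.32 without replicate 2. Between day 2 and day 4 they differed at Aldoc by -1.74 (1.04 in TKO and 2.78 in WT), Pfkm by -0.95 (-0.12 in TKO and 0.83 in WT) and Eno3 by -0.86 (-1.49 in TKO and -0.62 in WT).

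Between day 4 and day 7 the uptake and trapping genes differed, namely Slc2a3 by -2.75 (-1.90 in TKO and 0.86 in WT), Slc2a1 by -1.48 (-2.70 in TKO and -1.23 in WT), Hk2 by -0.67 (0.44 in TKO and 1.11 in WT) and Hk1 by -0.45 (-0.52 in TKO and -0.07 in WT). Among the enzymes from phosphofructokinase to phosphoglycerate kinase the difference was seen at Tpi1 by -1.52 (-1.23 in TKO and 0.29 in WT), Aldoa by -0.97 (-1.35 in TKO and -0.37 in WT), Pgk1 by -0.94 (-1.48 in TKO and -0.54 in WT), Pfkl by -0.92 (-1.21 in TKO and -0.29 in WT) and Aldoc by -0.88 (-1.76 in TKO and -0.88 in WT). Further down it was seen at Pkm by -0.63 (-0.87 in TKO and -0.24 in WT), Pgam1 by -0.63 (-0.69 in TKO and -0.06 in WT) and Eno1 by -0.53 (-0.59 in TKO and -0.06 in WT). At the fate of pyruvate and lactate the difference was negative for Pdk1 by -2.23 (-3.26 in TKO and -1.03 in WT), Slc16a3 by -1.66 (-1.43 in TKO and 0.23 in WT), Ldha by -0.81 (-0.90 in TKO and -0.09 in WT) and Slc16a1 by -0.79 (0.48 in TKO and 1.28 in WT). It was positive for Pfkfb4 by 2.17 (2.70 in TKO and 0.53 in WT), Ldhb by 0.81 (0.33 in TKO and -0.48 in WT) and Pdha1 by 0.39 (0.02 in TKO and -0.36 in WT). Slc2a3 was called lower at day 7 than at day 4 in TKO and higher in WT. Without WT day 4 replicate 2 the WT change of Pgk1 was -0.05 (adjusted p = 0.805) and its interaction -1.43, and the WT changes of Aldoa and Aldoc were -0.16 and -0.56. The Pgk1 interaction was -0.61 without WT day 4 replicate 1, and Hk2 in TKO changed by 0.27 without TKO day 4 replicate 2. The day 7 samples had been split after day 4 in both genotypes, and the higher T and Mixl1 of the TKO day 7 libraries moved with these differences; their part was not tested.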

How the results depend on the processing

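With 2 libraries per group, small differences rest on single libraries and on the spread shared by all 8 groups. Called members kept their direction in every alternative run. Outside leave-one-out, 1786 of 1840 checks of a called member kept the call and 54 lost it; leaving out a library kept 825 of 1020 and lost 195. Leaving out each library gave 3 to 12 called members for TKO against WT at day 0, 0 to 1 at day 2, 10 to 19 at day 4 and 24 to 25 at day 7. For the steps it gave 28 to 31, 17 to 21 and 13 to 19 in WT, and 28 to 28, 12 to 18 and 23 to 26 in TKO. For the interactions it gave 1 to 5 from day 0 to day 2, 2 to 4 from day 2 to day 4 and 13 to 18 from day 4 to day 7. With only the compared groups fitted the count was 4 at day 0, 13 at day 2, 7 at day 4 and 5 for the interaction from day 0 to day 2, where fewer libraries set the spread. That interaction gave 6 with no filter and 5 with DESeq2, and the interaction from day 2 to day 4 gave 5 with DESeq2; the cause was not tested. With TPM in place of counts the M2 share of Pkm was 97.24% in TKO and 98.13% in WT at day 0. It was 90.15% in TKO at day 2, 93.81% in WT at day 4, and 95.32% in TKO and 97.04% in WT at day 7. TPM divide by transcript length, in which the 2 forms differ.

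Replicate numbers did not pair samples. Over 28 pairs of groups the correlation of same-numbered deviations ran from -0.554 to 0.121, of which 1 exceeded 0.1 and 3 lay under -0.1. A block on the replicate number cannot take up a pattern that 2 groups share with the numbers swapped. With a replicate block the called members were 7, 7, 17 and 27 for TKO against WT at days 0, 2, 4 and 7, and 6 of 230 calls over all comparisons were lost (adjusted p 0.0535 to 0.0636): Eno3 at day 0, Pkm at day 2, Pdhb at day 7, Pdhb in WT from day 2 to day 4, Pgk1 in WT from day 4 to day 7, and the interaction of Eno1 from day 4 to day 7. Adding annotated or sequence-matched copies changed no count.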
